A study of Mus musculus with 8 samples.

Results

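The genes Neurog2, Neurog1, Neurod4, Eomes, Insm1, Btg2, Gadd45g, Mfap4 and Btbd17, which are on in the step from radial glia to intermediate progenitors of the embryonic cortex, were followed across cell classes and cycle states. They were chosen by name as 9 of the 27998 genes listed in each matrix. Single-cell RNA-seq libraries of CD1 mouse cortex at E16.5 (embryonic day) were made on the 10x Genomics Chromium platform, which tags each captured transcript with a unique molecular identifier (UMI). The 4 ShhN samples came from brains that had received a ShhN plasmid by in utero electroporation at E13.5. The 4 wild type samples came from littermates, and the labels do not say whether these received another plasmid. ShhN encodes the N-terminal fragment of sonic hedgehog (SHH), which carries its signal, and the labels give neither the promoter of the plasmid nor a marker of the cells that took it up. The study asked how SHH, acting from outside the cell, steers cortical stem cells along their lineage.

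Radial glia are the stem cells of the cortex. They divide at the ventricle, and many of their daughters become intermediate progenitors, which switch on a proneural program and give rise to excitatory neurons. Neurogenins start this program in dorsal progenitors, Eomes (Tbr2) is the defining factor of the intermediate state, and Btg2 is known to be on in progenitors whose divisions yield neurons. SHH signalling acts through Ptch1 and the Gli factors, promotes division of progenitors and favours ventral fates.

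Each group was deposited as 1 matrix in which cells could not be traced to a sample, so each group was 1 library. No difference between ShhN and wild type below has a replicate check, and no test was possible. Levels are CPM, the UMIs of a gene scaled to a common total of UMIs in its cell set, and ratios are log2 of ShhN over wild type. Square brackets give 95% intervals, which cover counting error only. A gene with at least 50 UMIs over both libraries was called measured. Under the size rule a measured gene was called higher or lower if its log2 ratio was 1 or more away from 0 and its interval stayed 0.5 or more away from 0. The ShhN library held 69470062 UMIs and 8075 cells with a median of 6683 UMIs, and the wild type library 63760199 UMIs and 6924 cells with a median of 6279. The libraries shared 71 cell barcodes, where 75.8 would be shared by random draws. A Shh UMI was seen in 6.58% [6.01, 7.19] of 7018 ShhN cells and in 0 of 5260 wild type cells, which allows a share of up to 0.0570%, each thinned to 4500 UMIs.

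Cells were clustered with the 9 genes, cell cycle genes and SHH pathway genes left out, and clusters were named from marker lists that hold none of the 9. Radial glia-like cells were 1 cluster (243 ShhN and 174 wild type cells) in which 15 of 15 radial glia markers were up. Neurogenic progenitor-like cells were clusters 7 and 11. Cluster 7 (716 ShhN and 110 wild type cells) had 10 of 12 markers up, but mitotic genes led it and no marker was among its top 10 genes. Cluster 11 (171 ShhN and 333 wild type cells) had 12 of 12 up. Cluster 7 thus made up most of the class in the ShhN library and cluster 11 most of it in the wild type library.

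A cell was called dividing with at least 3 UMIs summed over 20 cycle genes and non-dividing with 0. By this gate 86.7% of the ShhN and 92.7% of the wild type cells of cluster 7 were dividing, against 25.7% and 12.9% in cluster 11. The joined class therefore mixes cycle states in different shares, and the main comparisons were made in dividing (665 ShhN and 145 wild type) and non-dividing (91 and 146) neurogenic progenitor-like cells. Upper layer neuron-like cells, which are postmitotic, were called dividing in 4.33% of ShhN and 1.98% of wild type cells. Cajal-Retzius-like cells, also neurons, were called dividing in 30% of 30 ShhN and 30% of 70 wild type cells. Their median depths were 10345.5 and 9645.5 UMIs, and the gate was not scaled to depth. The free RNA, taken from barcodes with 1 to 50 UMIs, held 85.5 CPM of the mitotic gene Top2a in the ShhN and 12.3 CPM in the wild type library, and its part in the calls was not tested. Even within a cycle state the clusters hold unequal parts of the libraries, so values of each cluster are given as well.

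Neurog2, the main neurogenin of the dorsal cortex, lies on chromosome 3 (127633135 to 127635631, GRCm38). Its relative Neurog1 is a 1-exon gene on chromosome 13 (56250478 to 56252163), and Neurod4, a later gene of the same basic helix-loop-helix (bHLH) kind, lies on chromosome 10 (130268152 to 130280240). The T-box gene Eomes lies on chromosome 9 (118478212 to 118486132), and Insm1, a 1-exon zinc finger gene that promotes the formation of basal progenitors, on chromosome 2 (146221921 to 146225020). Btg2 (also Tis21), an antiproliferative gene, lies on chromosome 1 (134075170 to 134079120), and Gadd45g, a growth arrest gene, on chromosome 13 (51846678 to 51848468). Mfap4, a gene for a microfibril-associated matrix protein, and Btbd17, which encodes a BTB domain protein, lie on chromosome 11, at 61485431 to 61488900 and 114791217 to 114795945. In GENCODE M21 a gene on the opposite strand overlaps Eomes (Gm33460) and Mfap4 (Mapk7), and none of the 9 overlaps a gene on its own strand.

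The core promoters are shown because several of them share a feature that the choice of genes did not use. Of the 9 genes, 7 have a promoter in the RefSeq table used (build GRCm38.p6), all but Insm1 and Mfap4. The windows below run from 50 bases before the start site to 10 bases after it, 5′ to 3′ on the strand of the gene. Capitals mark a TATANAA box, the letters of a TATA box, that starts 40 to 20 bases before the start site. The windows lie at chr9:118478139-118478198 (Eomes, plus strand), chr3:127633086-127633145 (Neurog2, plus strand), chr13:51846625-51846684 (Gadd45g, plus strand), chr11:114795883-114795942 (Btbd17, minus strand), chr13:56252171-56252230 (Neurog1, minus strand) and chr1:134079146-134079205 (Btg2, minus strand).
Eomes: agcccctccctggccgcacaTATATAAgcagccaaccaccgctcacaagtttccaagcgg
Neurog2: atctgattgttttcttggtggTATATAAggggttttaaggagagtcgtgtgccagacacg
Gadd45g: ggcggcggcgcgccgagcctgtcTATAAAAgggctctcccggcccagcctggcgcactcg
Btbd17: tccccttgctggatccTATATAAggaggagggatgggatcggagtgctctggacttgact
Neurog1: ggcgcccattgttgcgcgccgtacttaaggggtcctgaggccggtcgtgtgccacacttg
Btg2: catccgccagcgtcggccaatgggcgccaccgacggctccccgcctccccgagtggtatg

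The box was found at this place in 4 of the 7 promoters (57.1%), those of Eomes, Neurog2, Gadd45g and Btbd17, and in 495 of 32851 promoters of the whole table (1.51%). It was not found in Neurog1, Btg2 or Neurod4, which has 2 listed start sites. Over both strands of the whole window of 300 bases, the letters TATANAA were found in 57.1% of the 7 and in 11.3% of all promoters. The motif was chosen after the sequences had been seen. The E-box CANNTG, the letters that bHLH factors bind, reads the same on both strands and was found at the first listed start site of 2 of the 7 genes (Neurog1 and Gadd45g) and at any listed start site of 3 (Neurod4 as well), against 72.3% of all promoters. A match is a description of letters and not a binding site.

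Most of the genes had their highest level in neurogenic progenitor-like cells in both libraries. Eomes stood at 582 CPM in ShhN and 824 CPM in wild type non-dividing neurogenic cells, and at 422 and 506 CPM in dividing ones. Next in the ShhN library came glial or ventral progenitor-like cells (132 CPM [120.5, 145]) and migrating excitatory neuron-like cells (125 CPM [118, 132]), whose intervals overlap. Next in the wild type library came radial glia-like cells (171 CPM [150.0, 194]) and migrating excitatory neuron-like cells (158 CPM [148, 169]), whose intervals also overlap. Deep layer neuron-like cells were at 11.1 CPM in ShhN and 12.2 CPM in wild type, and upper layer neuron-like cells at 3.04 and 3.36 CPM.

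Neurog2 had the same leading states, with 441 CPM in ShhN and 521 CPM in wild type non-dividing neurogenic cells and 269.9 and 339.5 CPM in dividing ones. So had Mfap4, with 316 and 558 CPM in non-dividing and 191 and 353 CPM in dividing cells. Neurod4 was mostly seen in this class: 148 of its 222 UMIs in the ShhN and 177 of its 202 UMIs in the wild type library lay in neurogenic progenitor-like cells, and radial glia-like cells held 1 in each library. Neurog1 was scarce everywhere, with 162 UMIs in all ShhN and 78 in all wild type cells.

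Insm1, Gadd45g and Btg2 were spread more widely. Insm1 was highest in dividing neurogenic cells (271 CPM in ShhN and 248 CPM in wild type) and still stood at 151 and 154 CPM in migrating and 86.9 and 88.8 CPM in upper layer neuron-like cells. Gadd45g was highest in the glial or ventral progenitor-like cells of the ShhN library (521 CPM [497, 546]). In the wild type library its non-dividing neurogenic cells (287 CPM [252, 326]) and its 33 glial or ventral cells (272 CPM [219, 335]) did not differ beyond counting error. Btg2 was also seen in endothelial-like cells, at 147 CPM in ShhN and 178 CPM in wild type, close to its level in radial glia-like cells.

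Endothelial-like cells, which should lack the neurogenic factors, give the background of the shares of cells with a UMI. With each cell thinned to 4500 UMIs, Eomes was seen in 0 of 30 ShhN endothelial-like cells, which allows a share of up to 10.0%, and in 5.71% of 35 wild type ones. Gadd45g was seen in 10.0% and 14.3% of them. Their median depth was 7913 UMIs in ShhN and 7114 in wild type. The free RNA held 84.7 CPM of Eomes in the ShhN and 41.8 CPM in the wild type library, and 252 and 101 CPM of Gadd45g.

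**Figure D1:**
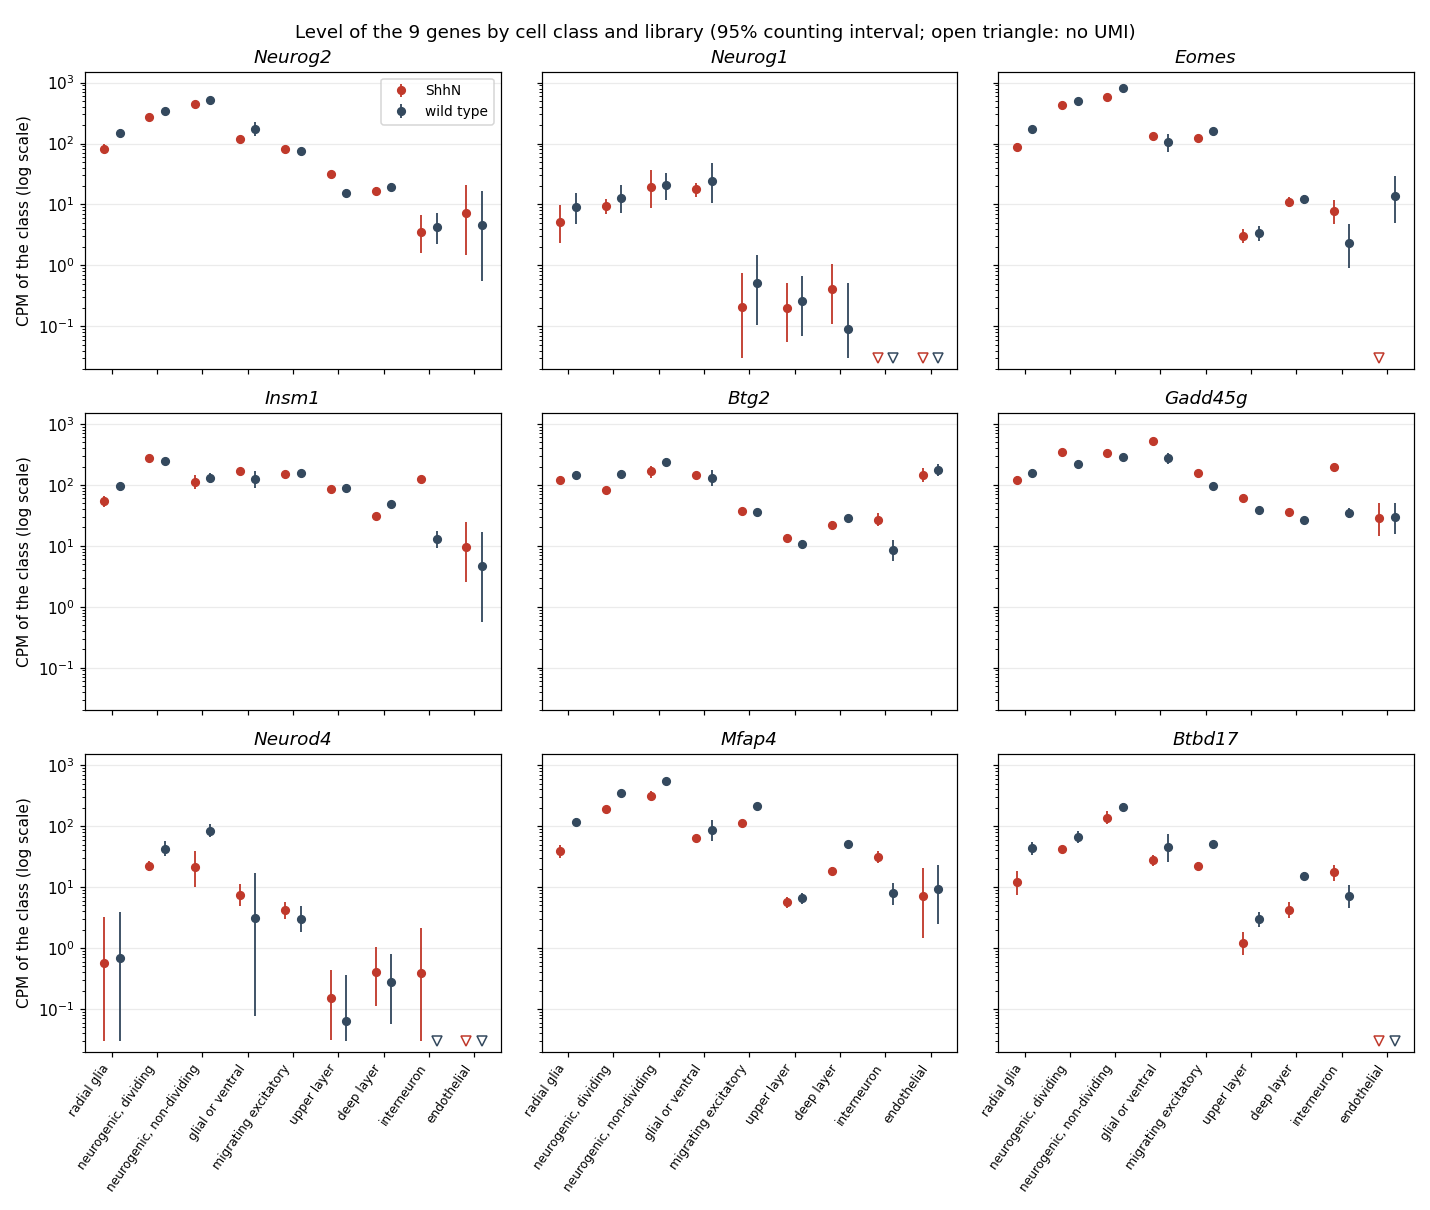
Level of each gene (CPM, log axis) by cell set in the ShhN (red, left) and wild type (dark blue, right) library, with 95% counting intervals drawn down to the floor of the axis; an open triangle marks no UMI. Neurogenic progenitor-like cells hold the highest drawn level of 7 genes in both libraries, while Gadd45g reaches 521 CPM in ShhN glial or ventral progenitor-like cells.

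In radial glia-like cells Mfap4 and Btbd17 were lower in the ShhN library. Mfap4 had 68 UMIs in ShhN and 169 in wild type cells, or 38.9 CPM [30.2, 49.2] and 118 CPM [101, 137], a log2 ratio of -1.60 [-2.03, -1.19]. Btbd17 had 21 and 62 UMIs, or 12 CPM [7.43, 18.3] and 43.2 CPM [33.1, 55.4], a log2 ratio of -1.85 [-2.64, -1.11]. For both genes the intervals of the 2 libraries lie apart. Their ShhN levels lie below those of the ShhN free RNA (63.7 CPM of Mfap4 and 20.1 CPM of Btbd17). Their wild type levels lie above those of the wild type free RNA (81.7 and 21.8 CPM). With a small fixed share of the UMIs of each set, assumed and not measured, subtracted as free RNA, Btbd17 had a ratio of -1.95. This did not take away the full level of the free RNA, and the actual part of free RNA in these cells was not tested. Of 6703 genes measured in this class 0.492% were lower and 0.507% higher. Mfap4 was lower in 15 of 15 alternative settings and Btbd17 in 14 of 15, the exception being cells thinned to 4500 UMIs (-1.85, with too few UMIs). For this class 1 of the 15 settings, a cycle state from Mki67 or Top2a, had to repeat the main value of every member. The radial glia-like class does not use cycle state.

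Eomes, Neurog2 and Insm1 did not pass the rule in radial glia-like cells, although their intervals lie below 0. Eomes had 154 UMIs in ShhN and 245 in wild type cells, or 88.0 and 171 CPM, with a log2 ratio of -0.96 [-1.26, -0.66]. Neurog2 stood at 82.3 and 149 CPM (-0.86 [-1.17, -0.55]) and Insm1 at 53.7 and 94.1 CPM (-0.81 [-1.21, -0.42]). The ShhN level of Insm1 lies below that of the ShhN free RNA (105 CPM). Its wild type level is close to that of the wild type free RNA (95.9 CPM). Eomes was past the rule in 6 of 15 alternative settings, and its ratio was -0.45 where radial glia were taken by counts of marker genes in place of clusters. Neurog2 was past the rule in 1 of 15, and with cells taken by marker counts its ratio was -0.07.

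The antiproliferative and growth arrest genes were nearer to equal. Btg2 stood at 120.0 CPM in ShhN and 146 CPM in wild type radial glia-like cells (-0.29) and Gadd45g at 122 and 159 CPM (-0.38 [-0.65, -0.10]). Neurog1 (9 and 13 UMIs) and Neurod4 (1 and 1 UMI) were too low to be measured. At a clustering resolution of 0.5 the ratio was 0.70 for Gadd45g and 0.43 for Insm1, and with cells taken by marker counts it was 0.59 and 0.23, so their sign turned under both settings. The median log2 ratio of the 7 measured members was -0.86, beside -0.01 over all genes measured.

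At equal depth the shares of radial glia-like cells with a UMI differed in the same direction. Mfap4 was seen in 13.1% [8.71, 18.6] of 199 ShhN and 36.0% [28.3, 44.2] of 150 wild type cells, and Insm1 in 14.1% [9.56, 19.7] and 29.3% [22.2, 37.3]. For Eomes the shares were 16.6% [11.7, 22.5] and 28.0% [21.0, 35.9], with intervals that overlap. Before thinning they were 16.1% and 44.2% for Mfap4, 22.6% and 40.8% for Insm1, and 18.1% and 33.3% for Eomes. At least 3 of the 9 genes were seen in 21.6% [16.1, 28.0] of the thinned ShhN and 39.3% [31.5, 47.6] of the wild type cells, and no member in 41.2% and 23.3%. Neurod4 was seen in none, which allows shares of up to 1.51% and 2%. Median depths were 6231 UMIs in ShhN and 6978 in wild type radial glia-like cells. The few endothelial-like cells gave Mfap4 shares of 3.33% [0.0844, 17.2] in ShhN and 2.86% [0.0723, 14.9] in wild type, and the ShhN interval overlaps that of the radial glia-like cells. Btg2 was seen in 37.7% of ShhN and 40.7% of wild type radial glia-like cells, and in 46.7% and 40.0% of endothelial-like ones. The Btbd17 share of ShhN radial glia-like cells (5.03%, against 14.7% in wild type ones) is below the 10.0% that the endothelial-like cells allow.

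Radial glia-like cells were also split by cycle state. In dividing cells (172 ShhN and 114 wild type) Mfap4 was lower, at 30.1 and 109 CPM (-1.86 [-2.41, -1.33]; 0.46% of 5873 genes were lower), while Eomes stood at 71.2 and 95.1 CPM (-0.42). In the 28 ShhN and 28 wild type non-dividing cells Eomes was lower, at 139 and 346 CPM (-1.32 [-2.11, -0.57]). There 4 members were measured, and Mfap4 (13 ShhN and 22 wild type UMIs) was not. Neurog2 was lower there too, at 114 and 292 CPM (-1.36 [-2.24, -0.54]), where 0.615% of 976 genes were lower and 0.512% higher. These non-dividing values rest on 22 ShhN and 51 wild type UMIs of Eomes, and on 18 and 43 of Neurog2. Gadd45g went the other way in non-dividing cells, at 378 CPM in ShhN and 251 CPM in wild type (60 and 37 UMIs). In dividing cells Gadd45g stood at 80.0 and 120.5 CPM. Dividing cells made up 70.8% of the ShhN and 65.5% of the wild type radial glia-like cells.

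**Figure D2:**
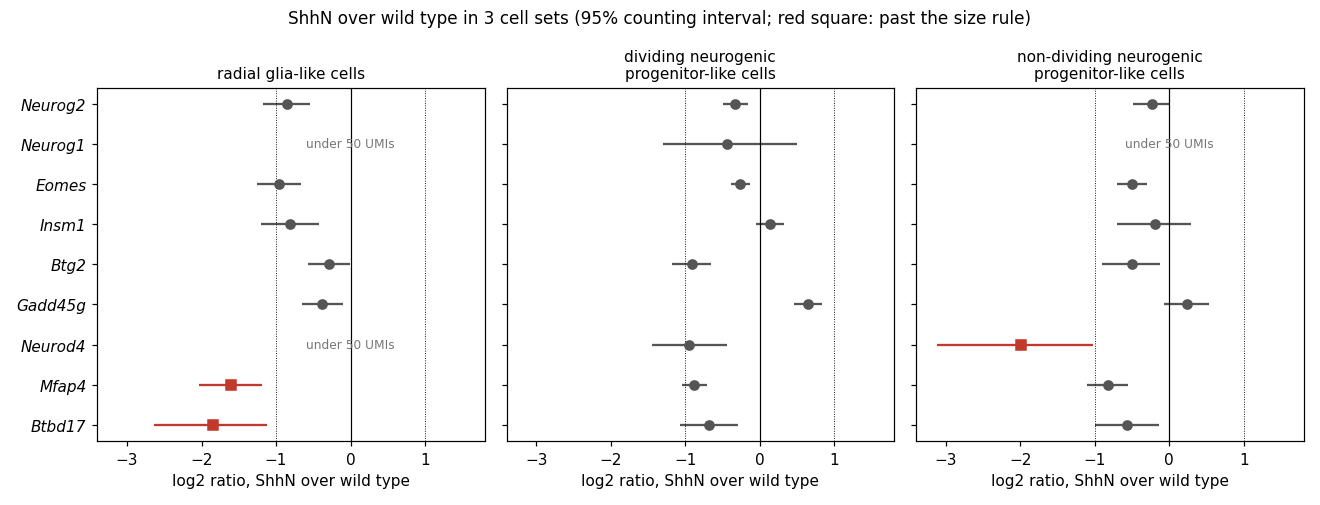
Log2 ratio of ShhN over wild type (x axis) of each gene in radial glia-like, dividing neurogenic and non-dividing neurogenic progenitor-like cells, with 95% counting intervals; dotted lines mark a log2 ratio of 1 in size. Mfap4 and Btbd17 in radial glia-like cells and Neurod4 in non-dividing neurogenic cells pass the size rule (red squares), and Gadd45g has ratios of 0.64 and 0.23 in the neurogenic sets.

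In dividing neurogenic progenitor-like cells none of the 9 genes passed the rule, where 0.604% of 8119 genes were lower and 0.431% higher. Eomes had 2187 UMIs in ShhN and 590 in wild type cells, or 422 CPM [404, 439.7] and 506 CPM [466, 548], a log2 ratio of -0.26 [-0.39, -0.13]. Neurog2 stood at 269.9 and 339.5 CPM (-0.33 [-0.49, -0.17]). Insm1 stood at 271 and 248 CPM (0.13 [-0.06, 0.32]), an interval that includes 0. Neurog1 had 49 and 15 UMIs (-0.45 [-1.30, 0.50]).

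Other members had larger ratios in the dividing neurogenic cells without passing the rule. Btg2 had 80.8 CPM in ShhN and 153 CPM in wild type cells (-0.92 [-1.17, -0.66]), and Neurod4 had 22.2 and 42.9 CPM (-0.95 [-1.44, -0.44]). Mfap4 stood at 191 and 353 CPM (-0.89 [-1.05, -0.72]) and Btbd17 at 41.5 and 66.9 CPM (-0.69 [-1.07, -0.30]). Gadd45g had the opposite sign, with 347 CPM [332, 364] in ShhN and 223 CPM [197, 252] in wild type cells (0.64 [0.45, 0.83]), and its ratio was between 0.60 and 0.87 in 15 alternative settings. The median of the 9 ratios was -0.45, beside -0.05 over all genes measured. Under 7 settings 1 member, Mfap4, Neurod4 or Btg2, was past the rule. In the dividing cells of cluster 11 alone the sign turned for Neurog1 (1.68), Neurog2 (0.48), Eomes (0.06), Insm1 (-0.30), Btbd17 (0.37) and Btg2 (0.04), while Mfap4 (-0.66) and Gadd45g (0.73) kept theirs.

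In non-dividing neurogenic progenitor-like cells Neurod4 was lower in the ShhN library. It had 10 UMIs and 21.3 CPM [10.2, 39.2] in ShhN cells and 70 UMIs and 84.8 CPM [66.1, 107] in wild type cells, a log2 ratio of -1.99 [-3.11, -1.03]. It was the 1 of 8 measured members past the rule, where 0.41% of 3660 genes were lower and 0.273% higher. At equal depth Neurod4 was seen in 5.97% [1.65, 14.6] of 67 ShhN and 26.0% [18.5, 34.7] of 123 wild type cells (7.69% and 31.5% before thinning). In endothelial-like cells it was seen in 0 of 30 ShhN and 0 of 35 wild type cells, which allows shares of up to 10.0% and 8.57%. The free RNA held 5.87 and 3.80 CPM of Neurod4. Neurod4 was not past the rule with a UMI threshold of 20% (-0.99), with cycle genes kept in the clustering (-0.67) or in cluster 11 alone (-1.41).

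The other measured members of the non-dividing cells did not pass the rule in the main comparison. Eomes stood at 582 CPM in ShhN and 824 CPM in wild type cells (-0.50 [-0.71, -0.30]), Neurog2 at 441 and 521 CPM (-0.24 [-0.48, 0.00]) and Insm1 at 113 and 129.6 CPM (-0.20 [-0.70, 0.29]). The Eomes ratio ran from -1.70 to -0.12 over 14 alternative settings. Mfap4 stood at 316 and 558 CPM (-0.82 [-1.10, -0.55]) and Btbd17 at 139 and 205 CPM (-0.56 [-1.0, -0.14]). Btg2 stood at 166 and 236 CPM (-0.51 [-0.90, -0.12]). Gadd45g had 337 and 287 CPM, with an interval that includes 0 (0.23 [-0.07, 0.53]). Over the alternative settings Btbd17 passed the rule in 6 (down to -2.07), Mfap4 in 5 (down to -1.96) and Btg2 in 4 (down to -1.40), and Eomes and Neurog2 in 2 each. The median of the 8 measured members was -0.50, beside -0.06 over all genes.

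The neurogenic clusters were also read singly. In cluster 7 none of the 9 passed the rule, where 0.385% of 8048 genes were lower. Eomes stood there at 398 CPM in ShhN and 421 CPM in wild type cells (-0.08 [-0.24, 0.08]), Btg2 at 73.4 and 140.4 CPM (-0.94 [-1.23, -0.63]) and Gadd45g at 338 and 192 CPM (0.82 [0.58, 1.06]). In cluster 11 Neurog1 was higher, with 45 UMIs and 44.5 CPM in ShhN and 37 UMIs and 17.9 CPM in wild type cells (1.31 [0.65, 1.98]; 0.209% of 6215 genes were higher and 0.402% lower). Eomes stood in cluster 11 at 724 and 807 CPM (-0.16 [-0.28, -0.03]) and Btg2 at 233 and 218 CPM (0.10 [-0.14, 0.33]). Mfap4 had ratios of -0.59 [-0.80, -0.38] in cluster 7 and -0.49 [-0.66, -0.33] in cluster 11. Eomes and Mfap4 thus differed less within each cluster than in the joined class.

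In the joined class (887 ShhN and 443 wild type cells) 3 members were lower in the ShhN library, where 2.31% of 9015 genes were lower and 2.91% higher. Btbd17 stood at 54.2 CPM in ShhN and 158 CPM in wild type cells (-1.54 [-1.75, -1.34]). Neurod4 stood at 23.2 and 60.6 CPM (-1.38 [-1.71, -1.06]) and Mfap4 at 213 and 463 CPM (-1.12 [-1.23, -1.01]). Dividing cells made up 75.0% of the ShhN and 32.7% of the wild type cells of the class. Btbd17 had ratios of -0.69 and -0.56 in the dividing and non-dividing cells of this class, and Mfap4 of -0.89 and -0.82. A further 131 ShhN and 152 wild type cells of the class were in neither cycle state. Of 8 measured members 1, Btbd17, was lower in these cells, where 0.757% of 4362 genes were lower and 0.55% higher.

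Dividing and non-dividing neurogenic progenitor-like cells were also compared within each library. Cycle state is mixed with cluster here, since cluster 7 held 621 of 665 ShhN and 102 of 145 wild type dividing cells, and cluster 11 held 58 of 91 and 144 of 146 non-dividing ones. Btbd17 was lower in dividing than in non-dividing cells of the ShhN library (41.5 and 139 CPM, log2 ratio of dividing over non-dividing -1.74 [-2.15, -1.32]; 1.41% of 7805 genes were lower). It was lower in the wild type library as well (66.9 and 205 CPM, -1.61 [-2.02, -1.22]; 1.24% of 5144 genes). Insm1 was higher in dividing cells of the ShhN library (1.26 [0.87, 1.69]; 5.47% of genes were higher) and had a ratio of 0.94 [0.61, 1.27] in the wild type library. Btg2 was lower in dividing ShhN cells (80.8 and 166 CPM, -1.04 [-1.39, -0.67]) and stood at 153 and 236 CPM in the wild type library (-0.63 [-0.93, -0.33]). Eomes had ratios of -0.47 [-0.65, -0.28] in the ShhN and -0.70 [-0.86, -0.54] in the wild type library. For each of these 4 genes the intervals of the libraries overlap, and the difference between libraries was not tested. In cells with an Eomes UMI, taken without regard to clusters, Btg2 had ratios of 0.60 [0.33, 0.88] in the ShhN and 0.28 [0.03, 0.52] in the wild type library, with the other sign. Btbd17 had ratios of -0.18 [-0.51, 0.16] and -0.65 [-0.95, -0.35] in them, and Eomes, which chose these cells, 0.16 [0.05, 0.27] and -0.26 [-0.38, -0.13]. Neurog1 (1.49 [0.58, 2.53]) and Insm1 (1.14 [0.93, 1.36]) were higher in dividing Eomes cells of the ShhN library, where 6.54% of 8798 genes were higher and 4.11% lower. Insm1 had a ratio of 0.84 [0.61, 1.07] in those of the wild type library, where 4.86% of 7606 genes were higher and 1.83% lower.

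Radial glia-like cells were compared by cycle state in the same way. In the wild type library Eomes (95.1 and 346 CPM, -1.86 [-2.37, -1.35]), Neurog2 (-1.58 [-2.10, -1.03]), Insm1 (-1.53 [-2.16, -0.87]) and Btg2 (-1.73 [-2.25, -1.20]) were lower in dividing than in non-dividing cells, where 0.644% of 3727 genes were lower and 3.22% higher. In the ShhN library Gadd45g was lower in dividing cells (80.0 and 378 CPM, -2.24 [-2.71, -1.76]), where 0.452% of 4429 genes were lower and 3.7% higher, and Eomes stood at 71.2 and 139 CPM (-0.96 [-1.64, -0.22]). Insm1 (-1.01 [-1.82, -0.13]) and Btg2 (-0.97 [-1.54, -0.37]) of the ShhN library and Gadd45g (-1.06 [-1.60, -0.49]) of the wild type library did not pass the rule, with intervals below 0. The non-dividing side holds 28 radial glia-like cells in each library.

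**Figure D3:**
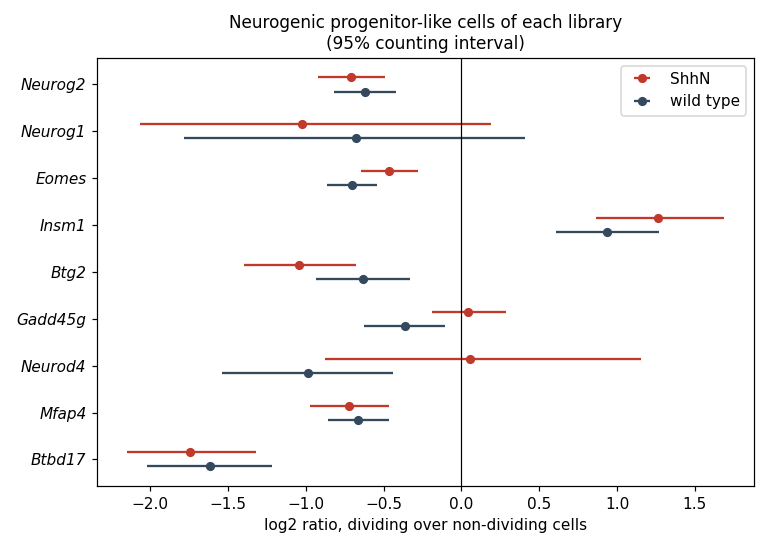
Log2 ratio of dividing over non-dividing neurogenic progenitor-like cells within the ShhN (red, upper) and wild type (dark blue, lower) library, with 95% counting intervals. Insm1 lies above 0 in both libraries and Btbd17 below 0, with Btbd17 ratios of -1.74 and -1.61.

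Cells with an Eomes UMI were also taken from all cells without regard to clusters. With each cell thinned to 4500 UMIs, an Eomes UMI was seen in 16.0% [15.1, 16.9] of 7018 ShhN and 13.4% [12.5, 14.3] of 5260 wild type cells (18.1% and 14.5% before thinning). Of these Eomes cells 50.6% [47.6, 53.5] of 1121 ShhN and 19.5% [16.6, 22.6] of 704 wild type cells were dividing, and 26.2% and 47.6% were non-dividing. Cluster 7 held 38.1% of the ShhN and 11.6% of the wild type Eomes cells, and cluster 11 held 12% and 38.2%. The libraries thus differed far more in the cycle state of their Eomes cells than in the share of such cells. Among all thinned cells 19.5% of ShhN and 5.99% of wild type cells were dividing, and among those without an Eomes UMI 13.6% and 3.91%. The difference in cycle state was thus not confined to Eomes cells.

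Several members were seen in fewer of the ShhN Eomes cells than of the wild type ones. Mfap4 was seen in 51.5% [48.5, 54.4] of ShhN and 66.2% [62.6, 69.7] of wild type Eomes cells, and Btbd17 in 20.0% [17.7, 22.4] and 36.9% [33.4, 40.6]. Btg2 was seen in 31.9% [29.2, 34.8] and 40.6% [37.0, 44.4], and Neurod4 in 7.05% [5.62, 8.71] and 12.9% [10.5, 15.6]. The intervals of the libraries lie apart for each of these 4 genes. Gadd45g was seen in more ShhN Eomes cells, 51.8% [48.9, 54.8] against 44.0% [40.3, 47.8], while the intervals overlap for Neurog2 (54.2% and 59.8%), Insm1 (46.8% and 41.6%) and Neurog1 (5.98% and 5.26%). With at least 2 Eomes UMIs required, Mfap4 was seen in 59.2% and 74.2%, and Gadd45g in 53.2% [49.5, 57.0] and 49.7% [45.1, 54.3], with intervals that overlap. In cells without an Eomes UMI Gadd45g was seen in 27.3% of ShhN and 14.5% of wild type cells, and Btg2 in 11.3% and 8.21%. There Mfap4 was seen in 8.85% and 8.30%, Btbd17 in 2.66% and 4.15% and Neurod4 in 0.271% and 0.176%.

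Genes outside the program were read in the same cells. The free RNA held 26.0 CPM of Hes1 in the ShhN and 6.65 CPM in the wild type library. Hes1, the Notch effector that holds progenitors in the stem cell state, was seen in 11.5% of ShhN and 2.42% of wild type Eomes cells, and Ptch1 in 11.7% and 1.42%. The libraries also differed in cells without an Eomes UMI. There Hes1 was seen in 5.26% of ShhN and 1.89% of wild type cells, and Ptch1 in 9.36% and 2.11%. Among the Eomes cells again, other genes differed less. Pax6, the upstream dorsal factor, was seen in 51.6% and 51.6%. The neuronal gene Neurod6 was seen in 84.0% and 84.2% of them but also in 88.3% and 92.2% of all cells. A Shh UMI was seen in 3.39% of the ShhN Eomes cells and in 0 of the 704 wild type ones, which allows a share of up to 0.426%.

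Over all Eomes cells, unthinned (1461 ShhN and 1005 wild type), Btbd17 was lower (50.4 and 113 CPM, -1.17 [-1.33, -1.0]), where 2.48% of 10361 genes were lower and 2.79% higher. Summed UMIs of these cells were also compared within cycle states. In 783 ShhN and 209 wild type dividing Eomes cells no member passed the rule, where 1.97% of 8865 genes were lower and 0.485% higher. Mfap4 stood there at 184 and 325 CPM (-0.82 [-0.96, -0.68]) and Gadd45g at 351 and 219.5 CPM (0.68 [0.53, 0.83]). In 335 ShhN and 426 wild type non-dividing Eomes cells 3 members were lower, where 0.516% of 7366 genes were. They were Neurod4 (10.7 and 29.9 CPM, -1.48 [-2.26, -0.77]), Btbd17 (51.9 and 112 CPM, -1.11 [-1.45, -0.78]) and Mfap4 (192 and 394 CPM, -1.04 [-1.22, -0.87]). Eomes selected these cells, so its level in them is not a result.

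**Figure D4:**
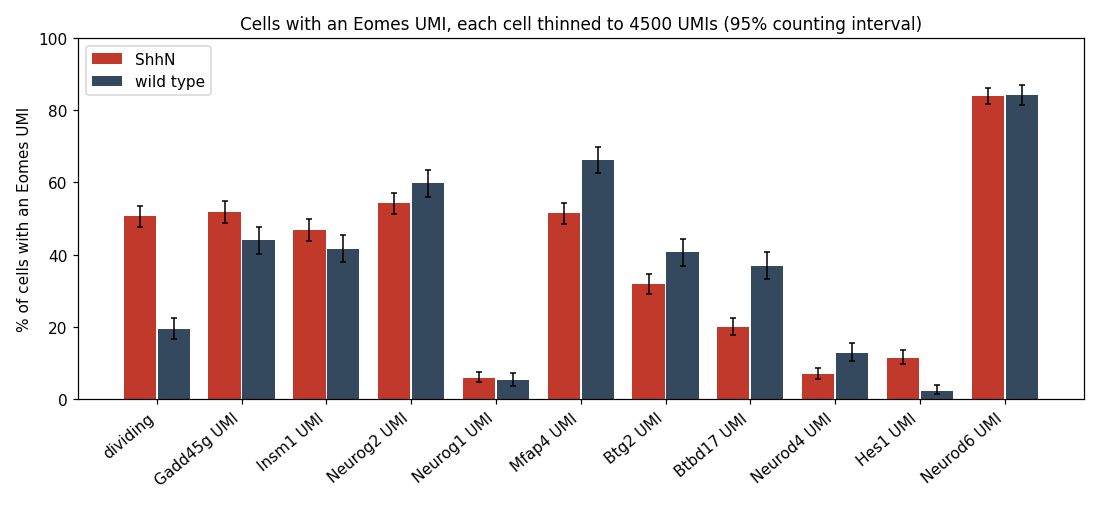
Share (%) of cells with an Eomes UMI that were dividing or had a UMI of another gene, in the ShhN (red, left) and wild type (dark blue, right) library, each cell thinned to 4500 UMIs, with exact 95% intervals. Dividing cells are 50.6% of ShhN and 19.5% of wild type Eomes cells, and Mfap4 is seen in 51.5% and 66.2%.

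Over all cells Gadd45g was the one member past the rule. It stood at 138 CPM in the ShhN and 59.6 CPM in the wild type library (1.22 [1.15, 1.28]), where 2.85% of 13032 genes were higher and 1.86% lower. The other 8 had ratios from -0.82 (Btbd17, 14.2 and 25.2 CPM) to 0.75 (Neurog1, 2.83 and 1.68 CPM), with Eomes at 85.2 and 74.9 CPM (0.18 [0.12, 0.25]). Levels over all cells depend on the make-up of each library, in which progenitors were 1535 of 8075 ShhN and 650 of 6924 wild type cells.

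By class, Gadd45g was higher in ShhN interneuron-like cells (197 and 35.1 CPM, 2.49 [2.19, 2.80]; 4.97% of 7993 genes were higher and 1.96% lower) and in dividing glial or ventral progenitor-like cells (534 and 266 CPM, 1.0 [0.69, 1.34]; 0.767% of 6521 genes were higher and 0.981% lower). It had ratios of 0.73 [0.59, 0.87] in migrating excitatory, 0.68 [0.54, 0.83] in upper layer and 0.45 [0.21, 0.68] in deep layer neuron-like cells, and of -0.38 [-0.65, -0.10] in radial glia-like cells. Within the deep layer class its ratio was 1.19 [0.91, 1.47] in cluster 9 (132 and 58.2 CPM) and 2.09 [1.21, 3.08] in cluster 8 (26.3 and 6.18 CPM). The ratio of the radial glia-like class thus had the other sign, except under the same 2 settings at which it turned (clustering resolution 0.5 and cells taken by marker counts). In dividing cells of that class Gadd45g stood at 80.0 CPM in ShhN and 120.5 CPM in wild type. In its non-dividing cells Gadd45g stood at 378 and 251 CPM, so the sign of the class was that of its dividing cells. In the migrating, upper layer, deep layer and interneuron-like classes the levels of Gadd45g lie below those of the free RNA. The free RNA held 252 CPM in the ShhN and 101 CPM in the wild type library. In radial glia-like cells its ShhN level (122 CPM) lies below as well, while its wild type level (159 CPM) lies above. The part of free RNA in these levels of Gadd45g was not tested. With the same small assumed share subtracted as free RNA, and not its full level, the Gadd45g ratio was 0.62 in dividing neurogenic and -0.49 in radial glia-like cells.

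Among excitatory neuron-like classes, as joined, Btbd17 and Mfap4 were the members past the rule downwards. Btbd17 was lower in ShhN migrating excitatory neuron-like cells (22.3 and 51.9 CPM, -1.22 [-1.48, -0.96]; 1.07% of 9678 genes were lower and 0.568% higher), where Mfap4 stood at 112 and 213 CPM (-0.93 [-1.05, -0.81]). Both were lower in deep layer neuron-like cells, Mfap4 at 18.2 and 50.6 CPM (-1.47 [-1.72, -1.22]) and Btbd17 at 4.26 and 15.3 CPM (-1.84 [-2.37, -1.35]; 0.94% of 10422 genes were lower and 0.115% higher). The deep layer class joins clusters 4, 8, 9 and 16, which the libraries fill unequally, and cluster 9 (155 ShhN and 432 wild type cells) held 144 of 180 ShhN and 519 of 549 wild type UMIs of Mfap4. Within cluster 9 neither gene passed the rule, with Mfap4 at 97.3 and 127 CPM (-0.39 [-0.67, -0.12]) and Btbd17 at 22.3 and 37.8 CPM (-0.76 [-1.35, -0.21]). Mfap4 stood at 4.14 and 4.26 CPM in cluster 4 and at 4.59 and 5.23 CPM in cluster 8. In upper layer neuron-like cells Btbd17 was lower (1.22 and 2.97 CPM, -1.29 [-2.07, -0.55]; 0.539% of 10761 genes) and Neurog2 was higher (31.3 and 15.6 CPM, 1.01 [0.79, 1.23]; 0.437% were higher). The levels given for the deep layer class and for upper layer neuron-like cells lie below those of the free RNA, which were 63.7 CPM in ShhN and 81.7 CPM in wild type for Mfap4, 20.1 and 21.8 CPM for Btbd17 and 57.0 and 39.9 CPM for Neurog2. The part of free RNA in these values was not tested.

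Migrating excitatory neuron-like cells are clusters 0 and 5, which hold unequal parts of the libraries. Cluster 5 (499 ShhN and 585 wild type cells) had Eomes at 333 and 282 CPM (0.24 [0.10, 0.37]), and cluster 0 (1153 and 537 cells) at 32.7 and 25.9 CPM (0.33 [-0.05, 0.73]). In the joined class Eomes stood at 125 and 158 CPM (-0.34 [-0.47, -0.22]), so the sign of its ratio in either cluster was not that of the class. Mfap4 had ratios of -0.47 [-0.61, -0.34] in cluster 5 and -0.31 [-0.58, -0.03] in cluster 0. Btbd17 did not pass the rule in cluster 5 (56.9 and 83.0 CPM, -0.55 [-0.83, -0.26]) and was lower in cluster 0 (6.93 and 18.6 CPM, -1.42 [-2.02, -0.83]; 0.796% of 8799 genes were lower and 0.557% higher). In cluster 0 the levels of Btbd17 and Eomes lie below those of the free RNA. The free RNA held 20.1 and 21.8 CPM of Btbd17 and 84.7 and 41.8 CPM of Eomes, and its part was not tested.

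In interneuron-like cells all 5 measured members were higher in the ShhN library: Insm1, Btg2, Gadd45g, Mfap4 and Btbd17 (over all genes 4.97% were higher and 1.96% lower). Insm1 had 125 CPM in ShhN and 12.8 CPM in wild type cells (3.29 [2.80, 3.80]). Different clusters fill this class. Cluster 15, in which 77.6% of ShhN cells were dividing, held 219 of 496 ShhN and 16 of 786 wild type cells, and clusters 6 and 17 held the others. In cluster 6 there was 1 measured member and in cluster 17 there were 0, and none passed the rule. Within cluster 15 Gadd45g was higher (327 and 94.9 CPM, 1.78 [0.85, 2.92]; 0.902% of 3989 genes were higher), on 9 wild type UMIs, and Insm1 had 304 UMIs in ShhN and 12 in wild type cells (0.78 [-0.04, 1.75]).

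The glial or ventral progenitor-like cells (405 ShhN and 33 wild type), with 6 of 9 markers up, also expressed members. None of the 8 measured passed the rule, where 1.16% of 6648 genes were lower and 0.797% higher. Eomes stood at 132 and 104 CPM (0.35 [-0.16, 0.90]), Neurog2 at 117 and 174 CPM (-0.58 [-0.98, -0.15]) and Gadd45g at 521 and 272 CPM (0.94 [0.63, 1.26]). Of the cells of this class 382 in the ShhN and 30 in the wild type library were dividing.

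Over the 3 progenitor classes together (1535 ShhN and 650 wild type cells, of which 405 and 33 were glial or ventral), Btbd17, Neurod4 and Mfap4 were lower in the ShhN library, where 2.34% of 10250 genes were lower and 1.92% higher. Btbd17 stood at 40.0 and 115 CPM (-1.52 [-1.70, -1.34]). Dividing cells made up 79.4% of the ShhN and 44.5% of the wild type progenitors. In dividing progenitors no member was lower, Gadd45g was higher (372 and 185 CPM, 1.0 [0.86, 1.15]; 0.903% of 9745 genes were higher and 2.39% lower), and Eomes stood at 278 and 286 CPM (-0.04 [-0.16, 0.08]). In non-dividing progenitors Neurod4 (-2.25 [-3.38, -1.29]) and Mfap4 (-1.0 [-1.27, -0.75]) were lower, where 0.473% of 4437 genes were lower and 0.563% higher, and Eomes stood at 446 and 747 CPM (-0.75 [-0.95, -0.55]).

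Cells of the ShhN library with a Shh UMI were set beside those without one. Among dividing neurogenic progenitor-like cells 44 had a Shh UMI and 621 had none. Eomes stood at 304 CPM in cells with and 431 CPM in cells without a Shh UMI (-0.50 [-0.79, -0.23], log2 of with over without), and Mfap4 at 117 and 197 CPM (-0.75 [-1.23, -0.31]). The intervals of Gadd45g (0.19 [-0.07, 0.43]), Insm1 (-0.09 [-0.41, 0.21]), Neurog2 (-0.26 [-0.59, 0.06]) and Btg2 (0.01 [-0.57, 0.55]) include 0. Those of Btbd17 (-1.18 [-2.51, -0.11]; 7 UMIs in cells with and 208 in cells without a Shh UMI) and Neurod4 (-3.12 [-8.44, -0.61]; 1 and 114 UMIs) lie below 0. A cell without a Shh UMI may still carry the plasmid, and both sets share 1 library. With the Shh cells left out, the ratios of ShhN over wild type in radial glia-like cells were -1.57 for Mfap4, -1.80 for Btbd17 and -1.06 for Eomes.

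Other genes of the switch to neurogenesis were read from fixed lists. Of 7 Notch genes (the ligands Dll1 and Dll3, the modulators Hes6 and Mfng, the effectors Hes1 and Hes5 and the feedback gene Nrarp), all were measured in dividing neurogenic cells. Hes1 was higher there (287 UMIs in ShhN and 5 in wild type cells, 3.69 [2.45, 5.32]) and Nrarp was lower (146 and 72 UMIs, -1.13 [-1.55, -0.70]), while Dll1 had a ratio of -0.94 [-1.50, -0.35] and Hes6 of -0.48 [-0.64, -0.33]. The median of the list was -0.48, beside -0.05 over all genes, of which 0.431% were higher and 0.604% lower. In radial glia-like cells none of 6 measured passed the rule, with Dll1 at -1.09 [-1.83, -0.37] and Hes1 at 0.89 [0.63, 1.16]. In non-dividing neurogenic cells none of 5 did. Hes1 and Hes5 are among the radial glia markers and Dll1, Dll3, Hes6 and Mfng among the neurogenic markers that named these classes.

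None of the postmitotic factors that follow the program passed the rule in the 3 sets. Of Neurod1, Neurod2, Neurod6, Tbr1, Bhlhe22 and Nhlh1 all 6 were measured in dividing neurogenic cells and none passed the rule, with a median of 0.28. Bhlhe22 had a ratio of 0.93 [0.53, 1.35], and Tbr1, the T-box gene that follows Eomes in new neurons, one of 0.11 [-0.26, 0.49]. In non-dividing cells none of 5 measured passed, with a median of -0.09, and in radial glia-like cells none of 2. Neurod1, a marker of the neurogenic class, had ratios of 0.16 [-0.07, 0.39] in dividing and -0.41 [-0.80, -0.02] in non-dividing cells, where those of Neurod4 were -0.95 and -1.99.

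The dorsal factors upstream of the program (Pax6, Emx1, Emx2, Lhx2 and Sox2) were all measured in the 3 sets and none passed the rule. Pax6, which activates Neurog2 in the cortex, had ratios of 0.12 [-0.02, 0.27] in radial glia-like, 0.15 [-0.05, 0.36] in dividing neurogenic and 0.06 [-0.30, 0.41] in non-dividing neurogenic cells. Lhx2 had ratios of -0.66 [-0.81, -0.50], -0.49 [-0.60, -0.38] and -0.37 [-0.58, -0.17] in the same sets. Of 8 relatives of the members (Btg1, Btg3, Gadd45a, Gadd45b, Mfap2, Insm2, Neurog3, Tbx21), 2, 3 and 2 were measured in these sets and none passed the rule. Mfap2, another microfibril gene, had ratios of -0.34 [-0.59, -0.09], -0.76 [-0.97, -0.54] and -0.34 [-0.67, -0.02], and Btg1 of -0.76 [-0.94, -0.58], -0.26 [-0.42, -0.09] and -0.08 [-0.35, 0.19].

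Genes of the SHH response, of dissociation and of ventral fate were read beside these results. Of 9 SHH genes 3 of 6 measured were higher in ShhN radial glia-like cells, namely Ptch1 (179 UMIs in ShhN and 14 in wild type cells), Hhip (64 and 0) and Ccnd1 (172 and 60). In dividing neurogenic cells 1 of 5 was higher, Ptch1 with 257 and 5 UMIs, and in non-dividing ones none of 2. Of all genes measured 0.507% were higher in radial glia-like cells, and 0.431% were higher and 0.604% lower in dividing neurogenic cells. Of 10 dissociation and immediate early genes, Egr1 was higher in ShhN radial glia-like cells (217 and 37 UMIs, 2.27 [1.76, 2.81]; 7 measured, median 0.46) and lower in dividing neurogenic cells (188 and 91 UMIs, -1.11 [-1.47, -0.73]; 6 measured, median -0.33). In non-dividing neurogenic cells none of 5 passed, with a median of 0.17. Of 7 ventral or glial genes 1, 2 and 0 were measured in the 3 sets and none passed, with Olig2 at 34 and 4 UMIs and Olig1 at 16 and 0 in radial glia-like cells. Btg2 is itself known as an early response gene. The part of dissociation in its values, and of ventral cells in those of radial glia-like cells, was not tested.

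Levels were also compared across clusters. Over the 21 clusters with at least 20 wild type cells, Pearson's r of log2(CPM + 10) between Eomes and Mfap4 was 0.95 in the ShhN and 0.95 in the wild type library. It was 0.87 and 0.91 for Neurog2, 0.87 and 0.81 for Neurod4, 0.86 and 0.84 for Btbd17 and 0.61 and 0.55 for Insm1, the least like Eomes. Other pairs were less alike, with 0.32 and 0.30 for Insm1 and Btg2 and 0.58 and 0.45 for Btg2 and Btbd17. Among other genes, those most like Eomes in the wild type library were Snhg18 (0.86 in ShhN and 0.95 in wild type), Ezr (0.89 and 0.92), Zhx2 (0.87 and 0.92), Kcnip3 (0.85 and 0.92) and Dhrs4 (0.89 and 0.91). Most like the mean of the 9 were Ezr (0.92 and 0.95), Mdk (0.92 and 0.94), Zhx2 (0.92 and 0.92), Plekhf2 (0.78 and 0.91) and Loxl1 (0.83 and 0.91). The clusters share a library and were made from the same cells, so r is a description.

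**Figure D5:**
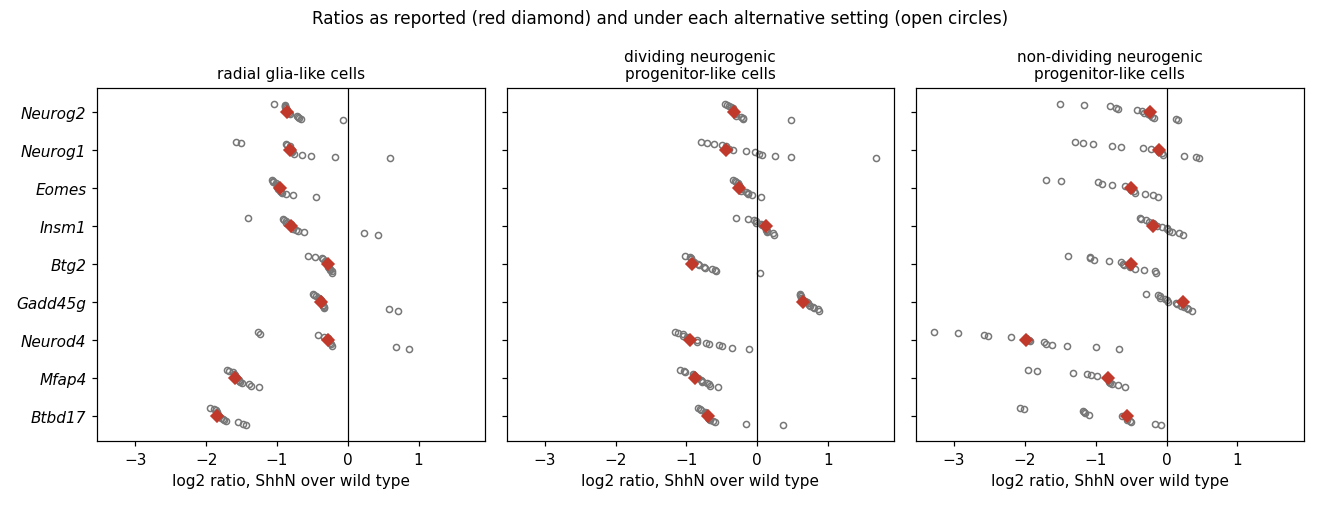
Log2 ratio of ShhN over wild type (x axis) of each gene in the 3 cell sets, as reported (red diamond) and under each alternative setting (open circles). Mfap4 lies below 0 under every setting drawn in the 3 sets, from -1.71 to -1.25 in radial glia-like cells, while Insm1 lies on both sides of 0 in each set.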

How the data were processed

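The authors deposited raw UMI counts for 27998 genes and 737280 barcodes, 1 matrix a group. The build mm10 and the tools Seurat 3, StringTie and Cell Ranger are named per the submitters' processing notes, with roles not given in the sources used here. The 4 samples of a group share its matrix, and groups come from the labels. Barcodes were kept with at least 800 genes, at most 10% mitochondrial UMIs and 10% or more of the UMIs at the 99th percentile among the 3000 deepest barcodes (2291 UMIs in ShhN and 2333 in wild type). Scrublet, set to a rate of 6%, marked 242 ShhN (2.91%) and 292 wild type (4.05%) barcodes as doublets, which were left out.

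Cells were clustered in scanpy 1.11.5 on 2000 variable genes, 30 principal components and 15 neighbours with Leiden (leidenalg 0.10.2) at resolution 1, without the 9 genes, 142 cycle genes, SHH pathway genes, globins, mitochondrial and sex-linked genes. Of 24 clusters 21 were named, each from at least 3 markers seen in 10% of its cells at 1.5-fold. The scoring was adjusted after the clusters had been seen. The members and lists were chosen with earlier results of these data known. Counts were summed per library and cell set, with exact Poisson intervals for CPM, conditional binomial intervals for ratios and Clopper-Pearson intervals for shares (scipy 1.17.1). The limit beside a share of 0 is 3 counts of the total. The size rule gives calls, not tests, and was checked on simulated counts. The simulated libraries shared a profile, apart from genes changed on purpose, and differed by counting error alone. The check therefore says nothing about differences between libraries or animals. Named were all 9 genes, the list genes (1 is not reported here) and, by likeness, the 5 genes with the highest Pearson's r in wild type with Eomes and with the mean of the 9, among genes with at least 200 UMIs. Thinned cells had 4500 UMIs, and shallower ones were left out.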

Additional observations from a re-analysis of the deposited data

How the results depend on the processing

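Each group was 1 library, so leaving out each replicate could not be run, and differences between animals, brains or preparations cannot be told apart from those between ShhN and wild type. No paired analysis was possible because the matrices carry no sample labels for cells. Beyond this, counting depth limits Neurog1 and Neurod4 in radial glia-like cells, and the 28 non-dividing radial glia-like cells of each library. The size rule has no error rate over libraries.

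In radial glia-like cells 2 members were lower, with 5 under a 1.5-fold rule and 1 where at least 200 UMIs were asked for. The Eomes ratio there (-0.96) was -0.45 with cells taken by marker counts. In dividing neurogenic progenitor-like cells 0 members were lower, with 4 under the 1.5-fold rule. There 1 was lower under each of 5% mitochondrial UMIs, a UMI threshold of 20%, resolution 2, cycle genes kept, members kept, cycle-correlated genes left out and thinned cells. The Eomes ratio there (-0.26) was -0.13 at the 20% threshold, -0.079 in cluster 7 alone and 0.055 in cluster 11 alone. In non-dividing neurogenic cells 1 member was lower, against 4 at 5% mitochondrial UMIs, 0 at the 20% threshold, 6 with doublets kept, 4 at resolution 2, 0 with cycle genes kept and 6 with members kept. It was 3 with cycle-correlated genes left out, 2 with a state from Mki67 or Top2a, 2 under the 1.5-fold rule, 0 with at least 200 UMIs and 0 in cluster 11 alone. The Eomes ratio there (-0.50) was -0.78 at 5% mitochondrial UMIs, -0.12 at the 20% threshold, -1.70 with doublets kept, -0.91 at resolution 2, -0.19 with cycle genes kept, -1.49 with members kept and -0.97 with cycle-correlated genes left out. Shares over all genes were not taken under these other rules and settings, so the counts of members called there have no background. The causes of these moves were not tested. Resolution 0.5 left no neurogenic class, so no neurogenic value could be had there. Single clusters and left-out cycle-correlated genes were alternatives chosen after seeing the data.

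Mfap4 was below 0 under each alternative that gave its ratio, from -1.71 to -1.25 in radial glia-like, -1.09 to -0.55 in dividing and at most -0.59 in non-dividing neurogenic cells. Scaling by trimmed means moved all ratios by 0.03, 0.10 and 0.06 in these sets. The ratio of the shares of all cells with an Eomes UMI, 1.25, ran from 1.19 to 1.28.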
